A study of Mus musculus with 36 samples.

Results

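The comparison described here set lungs of mice given large graphene oxide sheets (L) against lungs of mice given the dextrose carrier alone (D), 1 day after instillation. Its members are the 3 L and 3 D libraries of that day, 6 of the 36 libraries in the series, chosen by their treatment and time labels and not by any measured value. All animals were female wild-type C57BL/6 mice, 9 weeks old at day 1. L mice received 50 µg of sheets through the nostrils in 50 µL of 5% dextrose in water, and D mice received the same volume of 5% dextrose with no sheets. Both groups therefore carried the isoflurane anaesthesia, the liquid and the sugar, and differed in the sheets. The series holds 12 groups of 3 libraries of bulk polyadenylated lung RNA: D, L, small sheets (S) and ultra-small sheets (US), each at days 1, 7 and 28. It asked whether the lateral size of graphene oxide, an atomically thin oxidised carbon sheet, changes the response of the lung. The labels give 4 to 5 animals per group without saying which animal a library came from. The error behind each p-value is thus the spread of these libraries, which may in part be technical. Small pieces of every lobe were taken as 1 mixed tissue, in which fewer cells of a type and less RNA per cell cannot be told apart.

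An inhaled sheet that is too large for easy removal is met first by airway and alveolar lining cells and by alveolar macrophages, which engulf particles and call in neutrophils and monocytes through chemokines. Within hours, injured or stimulated cells transcribe immediate early genes such as Fos and Egr1, and the lining cells make acute-phase proteins such as serum amyloid A. Lung cells also run a circadian clock. Its activators (BMAL1, encoded by Arntl, with CLOCK or NPAS2) switch on the Per, Cry, Nr1d and Bhlhe40/41 genes at E-box sequences, and the products of these genes in turn hold the activators back.

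The 6 libraries held 16154696 to 21390972 counts, so that a level of 1 CPM (counts scaled to library size) rested on 16.2 to 21.4 counts. All 6 carried the genes that define lung: surfactant protein gene Sftpc stood at 35010 to 50615 TPM (transcript level scaled for length and library size), club-cell gene Scgb1a1 at 95979 to 127233 TPM and alveolar type 1 gene Ager at 2105 to 2892 TPM. L replicate 3 stood apart. On the first principal component of the 12 day 1 libraries, which held 36.2% of the variance, it lay at -41.3, whereas L replicates 1 and 2 lay at 6.53 and 17.1 and the D libraries between -25.9 and -22.4. The chi-square statistic per degree of freedom between libraries was 11.5 for L replicates 1 and 2 but 49.5 and 59.1 for these against L replicate 3, and 6.76 to 16.2 among the D libraries. For the counts over all genes, and for some of the named genes in which this library was the extreme by a wide margin, values without it are also given.

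Few genes passed the test at day 1, and 3 of the 4 that did belong to the clock. Of 16903 genes tested with edgeR's quasi-likelihood test, 4 passed a Benjamini-Hochberg adjusted p of 0.05, which is 0.0237% of them. Bhlhe41, Rgs2 and Bhlhe40 rose in L (0.0177% of genes) and Npas2 fell (0.00592%). Before adjustment, 483 genes (2.86%) were higher and 352 (2.08%) lower at p below 0.05. The 3 L values lay wholly above the 3 D values in 799 genes (4.73%) and wholly below them in 750 (4.44%). With L replicate 3 left out, a choice made after that library was seen to stand apart, these counts were 3787 (22.4%) and 3184 (18.8%). Fewer libraries lie apart more readily without any true difference. The counts with and without L replicate 3 are therefore not on the same scale. With the same library left out the count of adjusted calls was 1, the membrane protein gene Tmem252, and none of the 4 remained.

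Bhlhe41 and Bhlhe40 encode paired transcriptional repressors (DEC2 and DEC1) that compete with BMAL1 and its partners at E-boxes, Npas2 encodes a partner of BMAL1, and Rgs2 encodes a regulator that shuts off Gq-coupled receptor signalling. RefSeq promoter entries (GRCm38.p6, 250 bases before to 50 after the start, on the gene's own strand) matched 3 of the 4 genes (not Bhlhe40). They are shown because the clock acts through the E-box CACGTG and cAMP signalling through the motif TGACG, and these motifs are in capitals where a script found them on either strand. In Bhlhe41 (chr6:145865371-145865670, minus strand) there was 1 E-box, at position -153 (the motif's leftmost base as printed, counted from the start site at 0). In Rgs2 (chr1:144004100-144004399, minus strand) the motif TGACG was found on 1 strand or the other at positions -185 and -67. In Npas2 (chr1:39194022-39194321, plus strand) none of the motifs searched was found.
Bhlhe41: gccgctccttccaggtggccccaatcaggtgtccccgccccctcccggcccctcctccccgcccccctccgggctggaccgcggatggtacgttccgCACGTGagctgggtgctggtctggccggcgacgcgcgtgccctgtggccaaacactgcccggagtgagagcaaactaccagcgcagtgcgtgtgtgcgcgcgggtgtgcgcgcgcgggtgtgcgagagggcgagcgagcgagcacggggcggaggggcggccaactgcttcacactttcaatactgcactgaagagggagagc
Rgs2: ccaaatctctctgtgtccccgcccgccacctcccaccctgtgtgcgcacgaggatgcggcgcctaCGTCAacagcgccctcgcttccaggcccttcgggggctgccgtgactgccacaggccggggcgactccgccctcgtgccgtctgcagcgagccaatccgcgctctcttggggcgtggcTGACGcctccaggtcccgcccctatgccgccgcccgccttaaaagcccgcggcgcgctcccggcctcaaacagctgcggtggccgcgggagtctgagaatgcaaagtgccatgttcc
Npas2: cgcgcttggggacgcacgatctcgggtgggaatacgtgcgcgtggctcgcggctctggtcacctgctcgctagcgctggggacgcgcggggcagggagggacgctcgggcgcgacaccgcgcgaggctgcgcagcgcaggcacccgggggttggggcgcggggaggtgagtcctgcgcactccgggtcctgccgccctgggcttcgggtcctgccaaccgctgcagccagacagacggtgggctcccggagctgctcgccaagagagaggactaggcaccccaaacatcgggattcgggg
Among 32817 promoters of the same length, searched the same way on both strands, 7.15% held the E-box CACGTG and 20.8% held TGACG. The full cAMP response element TGACGTCA, which contains that motif, was in 1.79%. The glucocorticoid receptor motif AGAACA was in 19.0%, and the ROR and REV-ERB motif AGGTCA in 16.3%.

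Bhlhe41 (ENSMUSG00000030256, GRCm38 chromosome 6, 145858243 to 145865558) measured 10.1, 9.22 and 10.1 CPM in the D libraries and 21.5, 19.9 and 30.7 CPM in the L libraries. The groups did not overlap, and the lowest L library stood well clear of the highest D library. Its fitted log2 difference was 1.29 ± 0.20 (standard error, SE, here and below; 3 libraries per group), a 2.45-fold rise with an adjusted p of 0.00668. Bhlhe40 (ENSMUSG00000030103, chromosome 6, 108660629 to 108666925), its close relative, measured 58.6, 45.5 and 57.1 CPM in D and 97.8, 107.1 and 112.4 CPM in L. Again every L library was above every D library, and the log2 difference was 0.98 ± 0.16 (adjusted p = 0.00985). Per transcript length, Bhlhe40 was the more abundant of the pair: its mean level in D was 35.4 ± 3.15 TPM (SD, n = 3) against 2.99 ± 0.175 TPM for Bhlhe41. The corresponding L levels were 69.7 ± 6.56 and 8.05 ± 1.55 TPM.

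Npas2 (ENSMUSG00000026077, chromosome 1, 39193731 to 39363236) measured 9.62, 10.6 and 10.4 CPM in D and 3.27, 4.69 and 1.89 CPM in L. The D libraries agreed closely, whereas the L libraries were more spread, with replicate 3 the lowest. The log2 difference was -1.63 ± 0.30 (adjusted p = 0.0339), the largest of the 4 in size. Rgs2 (ENSMUSG00000026360, chromosome 1, 143999338 to 144004161) measured 95.1, 104.03 and 102.1 CPM in D and 176, 229 and 209 CPM in L. No L library came near the D range, and the log2 difference was 1.03 ± 0.17 (adjusted p = 0.00713). At 71.2 ± 7.501 TPM in D and 140.2 ± 30.2 TPM in L (SD, n = 3), Rgs2 was the most abundant of the 4 transcripts.

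The 4 calls depended on which libraries were in the fit. Leaving out D replicate 1 moved their adjusted p to 0.0566 to 0.0922, leaving out D replicate 2 to 0.0759 to 0.189, and leaving out D replicate 3 to 0.0554 to 0.140, with 0 genes called in each case by edgeR and 650, 549 and 1046 genes at an unadjusted p below 0.05. Without L replicate 3 the range was 0.0541 to 0.122, and without L replicate 1 the adjusted p of Npas2 alone passed the threshold upwards, to 0.151, while the other 3 calls held. Without L replicate 2 all 4 held, the highest adjusted p being 0.0455 (Rgs2), and Meox2, a homeobox gene of vessel walls, was a 5th call (log2 difference 0.70 ± 0.13, adjusted p = 0.0437). The sizes moved less than the calls. Over 15 alternative fits the log2 difference ran from 1.06 to 1.41 for Bhlhe41, from 0.94 to 1.10 for Rgs2, from 0.87 to 1.04 for Bhlhe40 and from -1.98 to -1.23 for Npas2. DESeq2 on the same counts called 27 genes, 18 of them higher in L, and all 4 were among them. The other 23 included the clock genes Hlf, Tef, Per3 and Arntl and the immediate early genes Fos and Egr1.

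**Figure D1:**
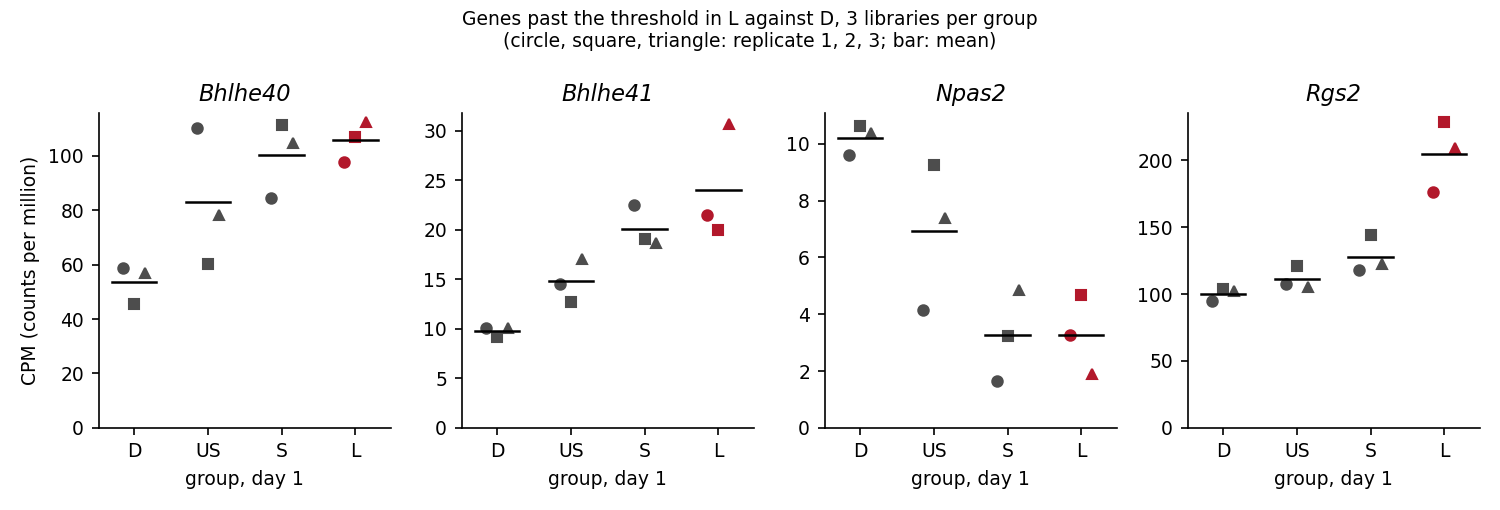
Levels (CPM, linear axis from 0) of Bhlhe40, Bhlhe41, Npas2 and Rgs2 in each library of the 4 day 1 groups, with circle, square and triangle for replicates 1, 2 and 3 and a bar at the mean of 3. The L libraries lie above every D library for Bhlhe40, Bhlhe41 and Rgs2 and below every D library for Npas2, and the S libraries lie within or near the L range except for Rgs2.

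The clock list as a whole moved in both directions. All 21 of its genes were tested: 2 rose (beside 0.0177% of all genes), 1 fell (beside 0.00592%), and the remaining 18 did not pass. The L libraries lay wholly above D in 10 and wholly below in 4, beside 4.73% and 4.44% of all genes, and the median log2 difference was 0.26 beside 0.01 for all genes. Among the 10 repressors the median was 0.79, with 6 wholly above D and 1 wholly below. Among the 5 output genes it was also 0.79, with 4 above and 1 below. The 6 genes of the activating arm had a median of -0.13. The labels describe a regular light and dark cycle, and the sources used here give no hour of collection. Hour and treatment therefore cannot be told apart for these genes.

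Among the repressors beyond the called pair, Per3 (a period protein) measured 39.4, 37.7 and 32.7 CPM in D and 60.8, 61.2 and 83.3 CPM in L, a log2 difference of 0.90 ± 0.21 (adjusted p = 0.1502). Nr1d1, which encodes the haem receptor REV-ERB alpha that represses Arntl, measured 131.4, 84.3 and 129.4 CPM in D and 233, 159.9 and 367 CPM in L. Its log2 difference was 1.14 ± 0.36 (adjusted p = 0.498), and replicate 3 was the highest of the L libraries by far; without it the difference was 0.76 ± 0.37 (adjusted p = 0.417). Nr1d2 (0.77 ± 0.21) and Per2 (0.82 ± 0.33) also had all L libraries above D. Per1 was the exception among the period genes. It measured 75.1, 83.8 and 86.3 CPM in D and 33.0, 62.8 and 54.7 CPM in L, wholly below D, with a log2 difference of -0.71 ± 0.44 (adjusted p = 0.978).

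Of the 5 output genes, Dbp, Tef and Hlf encode transcription factors of the PAR bZip family, which pass clock time to other genes. The remaining members are Usp2 and Tsc22d3. Usp2 lay wholly above D. Tsc22d3, also counted among the glucocorticoid-induced genes below, was the 1 member wholly below D. Hlf measured 26.0, 21.5 and 25.0 CPM in D and 47.5, 41.7 and 45.9 CPM in L, with a log2 difference of 0.90 ± 0.18 (adjusted p = 0.0596). Tef measured 219, 180.3 and 188 CPM in D and 316, 314 and 389 CPM in L, with a log2 difference of 0.79 ± 0.18 (adjusted p = 0.103). Both were tight in each group and did not overlap between groups. Dbp measured 23.9, 17.0 and 27.1 CPM in D and 55.0, 34.3 and 162 CPM in L. Its log2 difference was 1.88 ± 0.50 (adjusted p = 0.267), and 0.96 without L replicate 3, the highest library. On the activating side, Arntl measured 33.5, 41.7 and 31.6 CPM in D and 16.5, 23.5 and 8.52 CPM in L, a log2 difference of -1.14 ± 0.27 (adjusted p = 0.1502). Without L replicate 3, the lowest, the difference of Arntl was -0.86 ± 0.27 (adjusted p = 0.274). Clock itself, Cry1 (-0.01 ± 0.19) and Cry2 (0.26 ± 0.16) overlapped between the groups.

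The E-box was present on both sides of these differences. Promoter entries were found for 18 of the 21 clock genes, 25 promoters in all, and 6 promoters of 5 genes (Bhlhe41, Ciart, Cry1, Per1 and Tef) held CACGTG, beside 7.15% of all promoters. Of these, Bhlhe41 rose, Tef lay above D, Per1 lay below D, and Cry1 and Ciart overlapped with D. Ciart, a repressor of the clock, is shown as the promoter with the most E-boxes (3, at positions -116, -58 and -44; chr3:95882179-95882478, minus strand), and Tef (chr15:81802423-81802722, plus strand, the first of 2 promoters) for contrast.
Ciart: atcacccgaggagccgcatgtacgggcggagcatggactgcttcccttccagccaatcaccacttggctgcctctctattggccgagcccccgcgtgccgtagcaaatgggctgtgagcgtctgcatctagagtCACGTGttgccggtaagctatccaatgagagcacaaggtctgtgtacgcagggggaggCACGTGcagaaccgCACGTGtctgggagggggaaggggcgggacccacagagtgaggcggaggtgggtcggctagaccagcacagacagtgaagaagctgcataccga
Tef: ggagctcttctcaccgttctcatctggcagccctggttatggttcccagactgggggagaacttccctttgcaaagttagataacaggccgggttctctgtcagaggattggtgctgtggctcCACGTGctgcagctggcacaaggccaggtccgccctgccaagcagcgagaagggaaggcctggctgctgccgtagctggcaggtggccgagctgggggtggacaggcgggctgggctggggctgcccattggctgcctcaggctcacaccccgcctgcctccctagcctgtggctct
Ciart measured 10.6, 13.9 and 8.51 CPM in D and 7.01, 8.09 and 16.6 CPM in L, and its log2 difference was -0.06 ± 0.27 (adjusted p = 0.992).

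**Figure D2:**
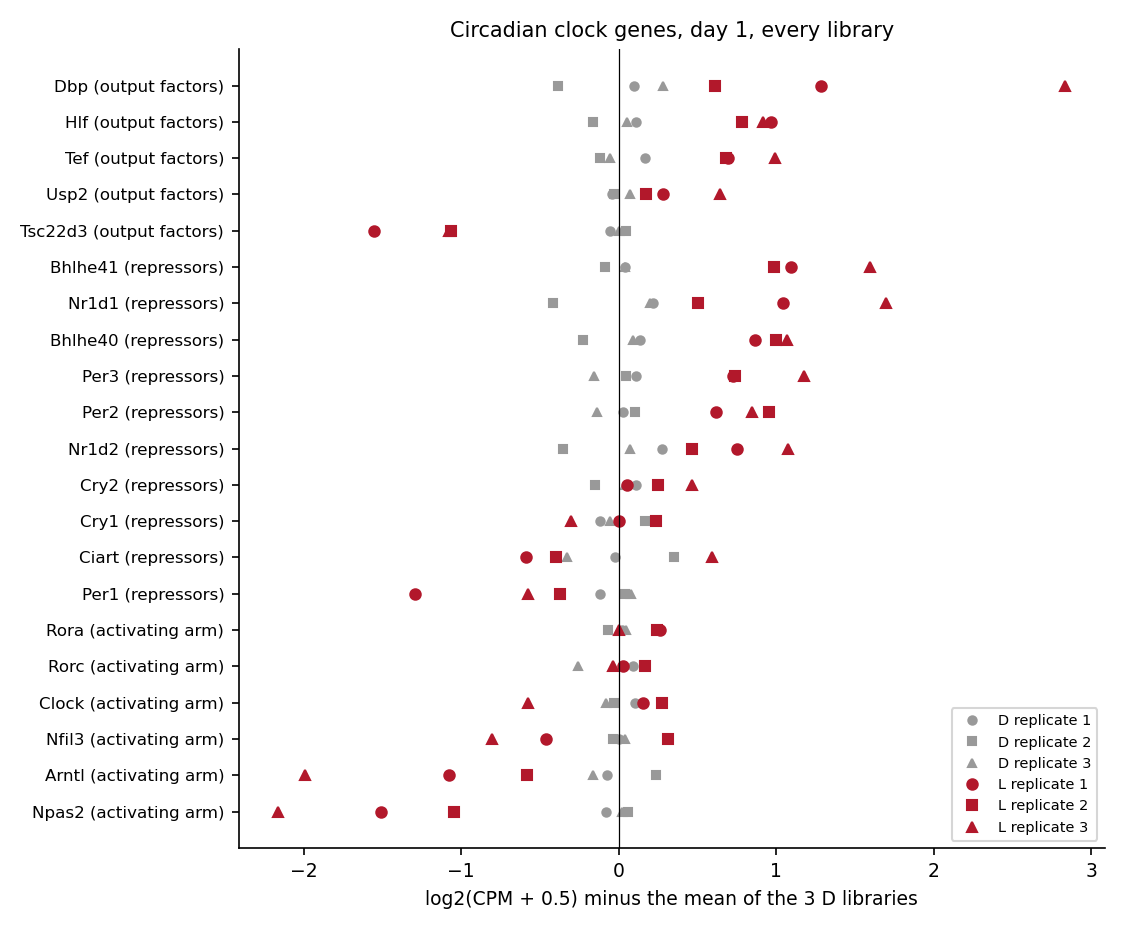
Log2(CPM + 0.5) of 21 clock genes in each of the 6 libraries, minus the mean of the 3 D libraries (D grey, L red), ordered by role. L points for Bhlhe40, Bhlhe41, Hlf and Tef lie together above D, and those for Nr1d1 and Dbp lie above D with replicate 3 highest. Those for Npas2, Arntl, Per1 and Tsc22d3 lie below D.

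Beside Rgs2, the genes that damp receptor and kinase signals were divided. The list of signal brakes had 19 tested members, of which 1 (Rgs2) rose, beside 0.0177% of all genes. Of the 19, 4 lay wholly above D and 1 wholly below, beside 4.73% and 4.44%, with a median of 0.13. Among 12 targets of cAMP signalling none other than Rgs2 passed the test, 2 lay wholly above D and 3 wholly below (the same shares of all genes apply), and the median was 0.07. Nr4a1, an orphan nuclear receptor induced by many stimuli, measured 45.8, 56.1 and 54.7 CPM in D and 70.3, 150.5 and 151 CPM in L. Its relative Nr4a3 lay on the other side of D, with 12.8, 5.97 and 9.39 CPM in D and 3.55, 4.90 and 5.42 CPM in L (log2 difference -1.02 ± 0.27, adjusted p = 0.267). Crem, whose short products close off cAMP-driven transcription, measured 24.7, 20.8 and 20.7 CPM in D and 18.1, 16.0 and 15.8 CPM in L.

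The immediate early genes were higher in L on the whole, though none passed the adjusted test with edgeR. Of 22 tested members (Fosl1 was below the filter on low counts), 6 lay wholly above D and 0 wholly below (4.73% and 4.44% of all genes), 9 were higher and 0 lower at an unadjusted p below 0.05 (2.86% and 2.08% of all genes), and the median was 0.46. DESeq2 called Fos and Egr1. Fos, a subunit of the AP-1 transcription factor, measured 32.6, 42.9 and 46.4 CPM in D and 75.8, 131.6 and 119.1 CPM in L. The groups did not overlap, L replicate 1 was nearest to D, and the log2 difference was 1.42 ± 0.30 (adjusted p = 0.0856). Egr1, a zinc-finger factor induced by growth signals, measured 33.1, 31.6 and 46.8 CPM in D and 72.4, 125.8 and 133.2 CPM in L, with a log2 difference of 1.57 ± 0.35 (adjusted p = 0.113). Cyr61, a matrix-associated target of stretch and growth signals, measured 104.9, 125.3 and 154 CPM in D and 229, 406 and 325 CPM in L (adjusted p = 0.298). Btg2, an antiproliferative early gene, measured 229, 222 and 228 CPM in D and 262, 499 and 368 CPM in L. Junb, another AP-1 subunit, measured 9.81, 12.6 and 19.5 CPM in D and 19.1, 50.4 and 84.1 CPM in L, and overlapped with D through L replicate 1. In contrast to the acute-phase genes below, L replicate 3 shared this pattern: the list's median difference from the mean of D was 0.04, 0.63 and 0.73 in L replicates 1, 2 and 3.

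Genes induced by glucocorticoids, the adrenal hormones that limit inflammation and follow a daily rhythm, did not stand higher in L. None of 16 passed the test, 0 lay wholly above D and 4 wholly below (4.73% and 4.44% of all genes), and the median was -0.14. By L library the median was -0.44, 0.12 and -0.46, so that replicate 2 was on the other side of D. Tsc22d3, which encodes the anti-inflammatory mediator GILZ, measured 341, 366 and 355 CPM in D and 120.5, 169 and 168 CPM in L. All L libraries were under the lowest D library, with a log2 difference of -1.21 ± 0.25 (adjusted p = 0.0596). Pdk4, a kinase that spares glucose, measured 19.7, 19.3 and 19.7 CPM in D and 6.87, 16.2 and 6.58 CPM in L, and Errfi1, a brake on the EGF receptor, measured 263, 249.97 and 279 CPM in D and 152, 209.6 and 157 CPM in L. Per1, the 4th of these genes, is also a glucocorticoid target. Both Per1 and Tsc22d3 are counted in the clock list as well.

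By the rule for naming genes, 477 genes had an unadjusted p below 0.05, a mean of at least 1 CPM and no overlap between the groups, and the most extreme in each direction are given here. None of them apart from the called genes passed the adjusted test. Lower in L was the secreted matrix and innate-immunity protein gene Spon2, with 49.6, 57.8 and 60.3 CPM in D and 22.4, 17.9 and 18.2 CPM in L (-1.52 ± 0.37, adjusted p = 0.187). Tmem252 measured 12.2, 13.5 and 13.8 CPM in D and 2.83, 4.18 and 8.47 CPM in L (-1.36 ± 0.27, adjusted p = 0.0530), with replicate 3 the nearest to D; without that library the difference was -1.93 ± 0.26 and the adjusted p 0.00055. Cyp1a1, which oxidises aromatic compounds under control of the aryl hydrocarbon receptor, measured 48.4, 33.0 and 30.2 CPM in D and 9.27, 6.34 and 23.8 CPM in L (adjusted p = 0.500). Higher in L was the kinase gene Dclk3, with 1.18, 1.66 and 1.55 CPM in D and 5.38, 4.02 and 3.63 CPM in L (1.57 ± 0.31, adjusted p = 0.0530). Has1, which makes hyaluronan, measured 1.61, 1.12 and 1.39 CPM in D and 3.07, 5.31 and 2.84 CPM in L (adjusted p = 0.387). Il6, an inflammatory cytokine, had the largest log2 difference of these genes, 2.29 ± 0.92, and measured 0.373, 0.414 and 0.568 CPM in D and 0.769, 5.21 and 0.789 CPM in L (adjusted p = 0.875). L replicate 2 was far above the others, and without it the difference was 0.76.

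Acute-phase genes were mostly higher in L replicates 1 and 2 and near or below the D level in L replicate 3. In the list of acute-phase and mucosal defence genes, 0 of 20 passed the test. Of the 20, 2 lay wholly above D and 0 below, beside 4.73% and 4.44% of all genes. With L replicate 3 left out, 12 lay above D, beside 22.4% of all genes. The median over the list was 0.57 in the fit, and 0.67, 0.65 and -0.12 in L replicates 1, 2 and 3 against the mean of D. Saa3, serum amyloid A3, measured 7.08, 2.48 and 14.2 CPM in D and 36.03, 58.1 and 2.16 CPM in L. Lcn2, the iron-withholding protein lipocalin 2, measured 165, 132.9 and 247 CPM in D and 427, 650.4 and 154 CPM in L. Serpina3n, a protease inhibitor, measured 117.6, 115.3 and 155 CPM in D and 312, 398 and 103.7 CPM in L. In each of these genes replicates 1 and 2 were above and replicate 3 below every D library or within their range. Without replicate 3 the log2 differences were 2.53 ± 0.97 for Saa3, 1.55 ± 0.52 for Lcn2 and 1.44 ± 0.43 for Serpina3n (adjusted p = 0.347, 0.307 and 0.255). Saa1 had the largest difference (2.85 ± 1.17, adjusted p = 0.885) at low levels, 0.186, 0.177 and 0.258 CPM in D and 1.97, 2.37 and 0.263 CPM in L.

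Among signals that recruit leukocytes, the neutrophil-attracting chemokines with their receptors were split in the same way and the CC chemokines were not. The first of these lists held 6 ligands and 2 receptors (Cxcr1 and Cxcr2). Of these 8 genes, 0 lay wholly above D with all libraries (4.73% of all genes) and 5 with L replicate 3 left out (22.4%). The 5 were 3 of the ligands and both receptors. The median differences from D were 0.49, 0.75 and -0.37 in L replicates 1, 2 and 3. For the ligands alone they were 0.26, 0.59 and -0.53. Among 17 tested acute cytokines and their regulators (Csf3 and Il17a were below the filter) the median was 0.27, and 0.27, 0.57 and -0.03 by L library. In 4 of them all L libraries, replicate 3 included, lay above D: Socs3, Il6, Il1b and Tnfaip3. Socs3, the feedback inhibitor of IL-6 signalling, measured 29.8, 29.1 and 33.8 CPM in D and 48.3, 79.2 and 41.7 CPM in L. Il33, an alarmin stored in lining cells, measured 122.7, 100.7 and 137.9 CPM in D and 254, 251 and 103.6 CPM in L, within the D range in replicate 3. Markers of neutrophils themselves overlapped between the groups: 0 of 15 tested lay wholly on either side, the median was 0.22, and Ly6g measured 0.0621, 0.118 and 0.361 CPM in D and 0.0480, 0.258 and 0.473 CPM in L. The markers Stfa2, Camp, Elane and Mpo were below the filter. Of 14 chemokines of the CC class, 3 lay wholly above D (Ccl2, Ccl3 and Ccl7) and the median was 0.26, with 0.04, 0.30 and 0.19 in L replicates 1, 2 and 3. Ccl2, which draws monocytes, measured 1.06, 0.532 and 1.03 CPM in D and 2.98, 4.74 and 1.10 CPM in L, and Ccl3 measured 2.61, 1.36 and 2.63 CPM in D and 4.76, 3.66 and 4.00 CPM in L (log2 difference 0.91 ± 0.32).

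**Figure D3:**
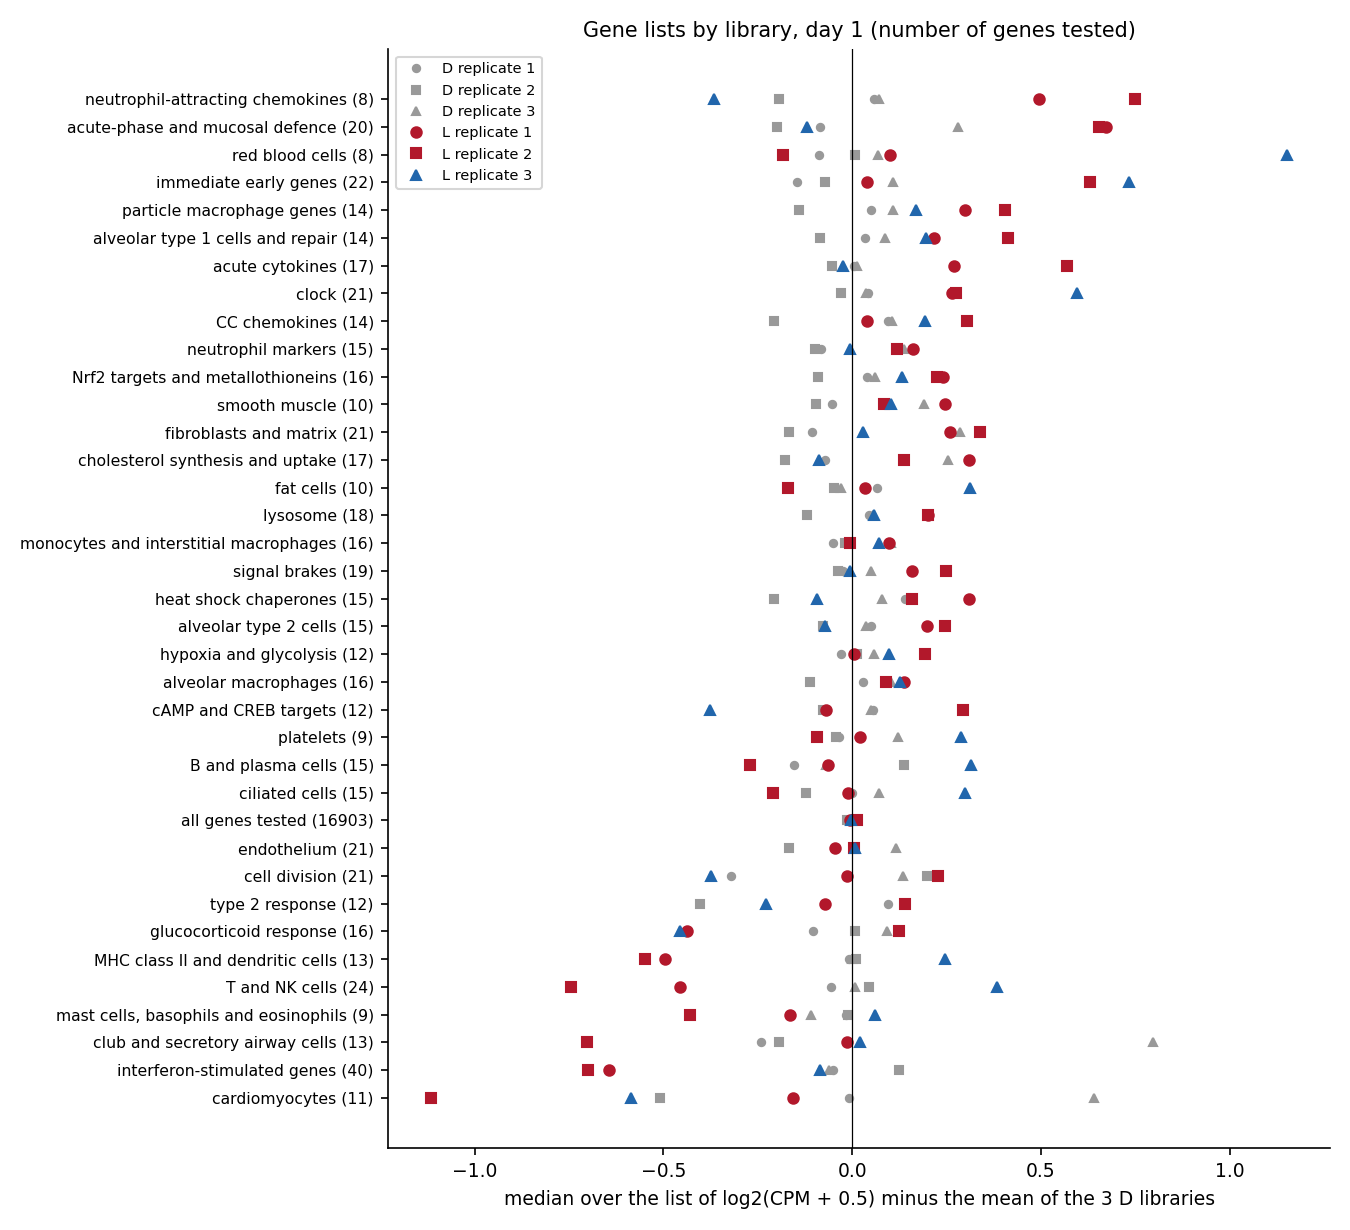
Median of each of 36 gene lists, and of all genes tested, in each of the 6 libraries, as log2(CPM + 0.5) minus the mean of the 3 D libraries (D grey, L replicates 1 and 2 red, L replicate 3 blue). In the acute-phase, neutrophil-attracting chemokine, interferon and T cell lists the blue point lies away from the red points, and in the clock and immediate early lists it lies above D.

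Genes of particle-laden macrophages leaned towards L. All 14 of that list had positive differences, beside 8972 of 16903 genes. Of the 14, 4 lay wholly above D (Hmox1, Spp1, Cd68 and Cd63) and 0 below, beside 4.73% and 4.44% of all genes, the median was 0.30 beside 0.01 for all genes, and none passed the test. Spp1, the secreted phosphoprotein osteopontin, measured 107.98, 102.02 and 95.0 CPM in D and 238, 283 and 108.7 CPM in L, with replicate 3 only just above D; without it the log2 difference was 1.34 ± 0.49 (adjusted p = 0.331). Mmp12, the macrophage elastase, measured 7.27, 4.67 and 7.12 CPM in D and 14.7, 22.2 and 5.94 CPM in L, overlapping D through replicate 3. Lysosomal genes showed smaller differences. Of 18, 5 lay wholly above D, among them Tfec, Npc2 and Ctsl, and 0 below, beside the same shares of all genes, and the median was 0.14. The protease gene Ctsk measured 35.95, 32.2 and 38.2 CPM in D and 75.9, 118.5 and 35.0 CPM in L. Markers of resident alveolar macrophages had a median of 0.11, with 2 of 16 tested wholly above D, and those of monocytes and interstitial macrophages 0.14, with 1 of 16 above, beside 4.73% of all genes. Chil3, a lectin made by alveolar macrophages and held in both lists, was among those above (0.62 ± 0.28, adjusted p = 0.968).

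Interferon-stimulated genes were lower in L as a group of small differences. Of 40 tested (Cxcl11 was below the filter), 36 had negative differences, beside 7931 of 16903 genes. Of the 40, 16 lay wholly below D and 0 above, beside 4.44% and 4.73% of all genes. At an unadjusted p below 0.05, 8 were lower and 0 higher, beside 2.08% and 2.86% of all genes. None passed the adjusted test, and the median log2 difference was -0.43. All 12 guanylate-binding and immunity-related GTPases, which attack the vacuoles of intracellular microbes, were negative, 8 of them wholly below D, with a median of -0.46. The 21 antiviral effectors had a median of -0.49 with 6 wholly below D, and the 7 transcription factors and chemokines -0.35 with 2 below (Irf9 and Stat2). Gbp4 measured 102.7, 154 and 86.8 CPM in D and 44.7, 37.9 and 76.6 CPM in L. Oas1a, which senses double-stranded RNA, measured 12.4, 16.6 and 15.1 CPM in D and 8.02, 6.34 and 11.6 CPM in L. In both genes the 3 L libraries were lower, with replicate 3 closest to D. In L replicates 1, 2 and 3 the list's median difference from D was -0.65, -0.70 and -0.09. With L replicate 3 left out, 35 of the 40 lay wholly below D and 1 above, beside 18.8% and 22.4% of all genes.

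Lymphocyte and antigen-presentation genes were split between the L libraries. All 24 genes of T and natural killer cells had negative fitted differences, beside 7931 of 16903 genes, with a median of -0.21. Only Il7r lay wholly below D (beside 4.44% of all genes), whereas 23 did so with L replicate 3 left out (beside 18.8% of all genes). The list's median difference from D was -0.46 and -0.74 in L replicates 1 and 2 and 0.38 in replicate 3, and the summed level ran from 229 to 464 CPM in L and from 361 to 389 CPM in D. Il7r, the receptor for the T cell survival factor IL-7, measured 24.4, 29.9 and 21.5 CPM in D and 16.9, 18.1 and 18.9 CPM in L. MHC class II and dendritic cell genes followed the same order, with medians of -0.50, -0.55 and 0.25 in L replicates 1, 2 and 3. Their fitted median was -0.17, and 3 of 13 genes (Itgae, Cd209a and Flt3) lay wholly below D, beside 4.44% of all genes. B and plasma cell genes had a median of 0.05, with 0 of 15 wholly above or below D, beside 4.73% and 4.44% of all genes. None of the 3 lists held a gene that passed the test, and the part of these cells in the interferon differences was not tested. Among 9 tested genes of mast cells, basophils and eosinophils, the median was -0.23. Gata2 alone lay wholly below D (beside 4.44% of all genes), at 111.5, 120.1 and 141 CPM in D and 79.8, 94.8 and 100.3 CPM in L.

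**Figure D4:**
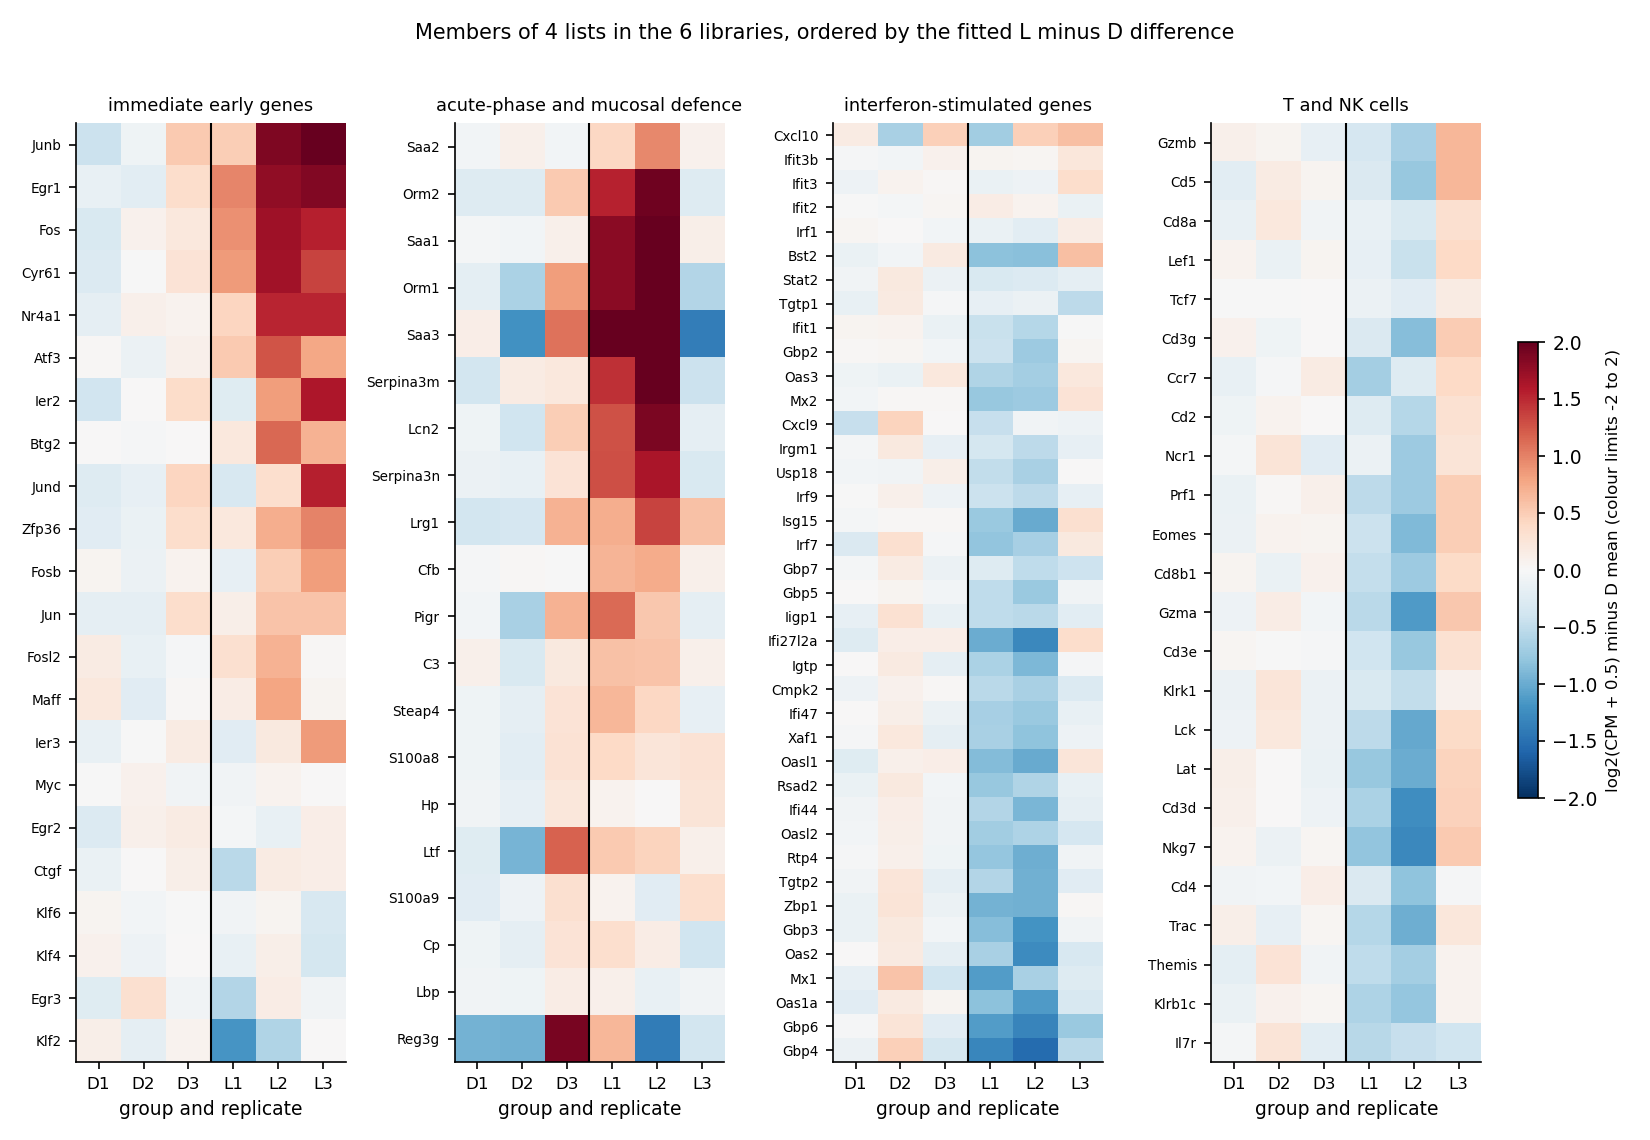
Heat map of log2(CPM + 0.5) minus the mean of the 3 D libraries, limited to -2 to 2, for tested members of 4 lists (immediate early, acute-phase and mucosal defence, interferon-stimulated, and T and natural killer cells) in the 6 libraries. L replicates 1 and 2 are high for acute-phase genes and low for interferon and T cell genes, L replicate 3 is near or opposite to them there, and immediate early genes are highest in L replicates 2 and 3.

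No marker of the structural cells of the lung passed the test, and of these lists the alveolar type 1 and repair genes had the highest median. Endothelial genes had a median of -0.02 (21 tested, 2 wholly above D, the adhesion molecules Sele and Selp). Alveolar type 2 genes had a median of 0.12 (15 tested, 2 above, Sftpd and Napsa). For alveolar type 1 and repair genes the median was 0.30, with 3 of 14 wholly above D (Cldn4, Pdpn and Krt8) beside 4.73% of all genes, and 4 of 14 higher at an unadjusted p below 0.05 beside 2.86%. By L library its median was 0.22, 0.41 and 0.20. Cldn4, a tight-junction protein made by lining cells under repair, measured 3.60, 3.19 and 3.87 CPM in D and 6.00, 10.2 and 6.47 CPM in L, a log2 difference of 1.08 ± 0.45 (adjusted p = 0.903). Club and secretory airway genes had a median of -0.35. Against the mean of D, their medians were -0.01, -0.70 and 0.02 in L replicates 1, 2 and 3. In D replicates 1, 2 and 3 they were -0.24, -0.19 and 0.80. Ciliated cell genes (15 tested, 1 above D), fibroblast and matrix genes (21 tested, 1 above and 1 below) and smooth muscle genes (10 tested, 0 on either side), beside 4.73% and 4.44% of all genes, had few members apart from D.

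No gene of the stress pathways passed the test, and their medians were small. All 15 heat shock chaperone genes had positive differences, beside 8972 of 16903 genes, but their median was 0.13. Only Hspb1 lay wholly above D (beside 4.73% of all genes), with 30.0, 27.2 and 33.3 CPM in D and 45.7, 64.9 and 44.1 CPM in L. Targets of the oxidant sensor Nrf2 and metallothioneins had a median of 0.16, with 4 of 16 wholly above D beside 4.73% of all genes and 1 of 16 higher at an unadjusted p below 0.05 beside 2.86%, genes of cholesterol synthesis and uptake 0.15, with 0 of 17, and hypoxia and glycolysis genes had 2 of 12 wholly above. Cell division genes had a median of -0.04, with 0 of 21 wholly on either side, and 12 tested genes of the type 2 response had a median of -0.14.

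Markers of tissues that can be carried over in dissection varied between single libraries. In their fitted differences, cardiomyocyte genes also leaned below D and red blood cell genes above it. Cardiomyocyte genes had a median of -0.86, with 10 of 11 negative, beside 7931 of 16903 genes. Of the 11, 2 lay wholly below D (Mb and Sln), beside 4.44% of all genes. The summed level of the cardiomyocyte list nevertheless overlapped, from 91.6 to 224 CPM in D and from 88.0 to 125.3 CPM in L, with D replicate 3 the highest. All 8 tested red blood cell genes had positive differences, beside 8972 of 16903 genes, with a median of 0.54. Alas2 alone lay wholly above D (1 of 8, beside 4.73% of all genes). It measured 42.3, 43.2 and 45.6 CPM in D and 78.0, 51.8 and 74.3 CPM in L. The summed level of the list was 1162 to 1421 CPM in D and 1105 to 3051 CPM in L. The upper end was L replicate 3, whose median difference from D was 1.15 beside 0.10 and -0.18 in replicates 1 and 2. Fat cell and platelet genes had medians of 0.15 and 0.07. The part of blood or heart RNA in the differences of other genes was not tested.

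The day 1 libraries of the smaller sheets share the D libraries as their control, and their values are given side by side for this reason. In S against D 8 genes passed the adjusted p (0.0473%) and in US against D 15 (0.0887%). Bhlhe41 measured 22.5, 19.0 and 18.6 CPM in S and 14.6, 12.7 and 17.1 CPM in US. Its log2 difference from D was 1.03 ± 0.20 in S (adjusted p = 0.0367) and 0.59 ± 0.20 in US (adjusted p = 0.149). Bhlhe40 measured 84.7, 111.2 and 104.8 CPM in S and 110.1, 60.3 and 78.3 CPM in US, with differences from D of 0.90 ± 0.16 (adjusted p = 0.0262) and 0.63 ± 0.16 (adjusted p = 0.0724). Npas2 measured 1.67, 3.25 and 4.87 CPM in S and 4.15, 9.26 and 7.38 CPM in US, with differences of -1.65 ± 0.30 (adjusted p = 0.0262) and -0.56 ± 0.29 (adjusted p = 0.330). These 3 genes thus passed the test in S as well. Rgs2 measured 117.7, 144 and 122.2 CPM in S and 107.3, 120.8 and 105.02 CPM in US, and its differences from D were 0.35 ± 0.16 (adjusted p = 0.223) and 0.14 ± 0.16 (adjusted p = 0.687).

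Compared directly with either smaller sheet, no gene passed the adjusted test in L. L against S gave 0 calls with edgeR (0% of genes), with 1759 genes at an unadjusted p below 0.05 (1285, or 7.6%, higher and 474, or 2.8%, lower in L) and 0 calls with DESeq2. L against US also gave 0 (0%), with 1060 genes at an unadjusted p below 0.05 (496, or 2.93%, higher and 564, or 3.34%, lower in L) and 20 calls with DESeq2, and 9 calls with edgeR when US replicate 2 was left out. The US libraries were themselves spread, at 46.3, -23.8 and 10.4 on the first principal component for replicates 1, 2 and 3. So were the S libraries, at -10.9, 31.9 and 35.9. Lcn2 of the acute-phase list measured 145, 1081 and 1338 CPM in S replicates 1, 2 and 3, and 2652, 449 and 1112 CPM in US. The closest to a difference among the 4 genes was Rgs2, at 0.88 ± 0.16 against US (adjusted p = 0.0971) and 0.68 ± 0.16 against S (adjusted p = 0.457). Fos differed from S by 1.19 ± 0.30 (adjusted p = 0.457). Of 22 immediate early genes, 11 were higher and 0 lower in L than in S at an unadjusted p below 0.05 (7.6% and 2.8% of all genes), with a median of 0.56, and 1 was higher and 2 lower than in US. In the acute-phase list L was below US at an unadjusted p below 0.05 in 11 of 20 genes (median -0.96) and below S in 4 (median -0.48). Glucocorticoid-induced genes were below US in 11 of 16 (median -1.10) and below S in 1 (median -0.36), beside 3.34% and 2.8% of all genes.

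The same question at days 7 and 28 was answered by other animals with their own D libraries. L against D gave 26 calls at day 7 (0.154% of genes) and 363 at day 28 (2.15%). Bhlhe41 was called at both: its log2 difference was 1.60 ± 0.20 at day 7 (adjusted p = 2.48e-05) and 1.68 ± 0.20 at day 28 (adjusted p = 7.94e-06). Bhlhe40 was also called at both, with 0.87 ± 0.16 (adjusted p = 0.00950) and 0.80 ± 0.16 (adjusted p = 0.00601). Npas2 fell at both days, with -2.60 ± 0.32 (adjusted p = 2.48e-05) and -1.89 ± 0.29 (adjusted p = 0.000225). Rgs2 had differences of 0.57 ± 0.16 at day 7 (adjusted p = 0.362) and 0.76 ± 0.17 at day 28 (adjusted p = 0.00990). Arntl and Spon2, which missed the threshold at day 1, fell at both later days. Arntl differed by -2.17 ± 0.29 (adjusted p = 7.73e-05) and -1.66 ± 0.27 (adjusted p = 0.000491), and Spon2 by -2.17 ± 0.38 (adjusted p = 0.00366) and -1.57 ± 0.37 (adjusted p = 0.0190).

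Whether the L effect itself differed between days was tested as an interaction. Between days 7 and 1 it gave 0 calls with edgeR (0%), with 563 genes at an unadjusted p below 0.05 and 5 calls with DESeq2. Between days 28 and 1 it gave 41 (0.243%), 19 with a larger difference at day 28 and 22 with a smaller or more negative one. That count was 7 without L day 1 replicate 1, 11 without L day 1 replicate 2 and 318 without L day 1 replicate 3. It was 16, 9 and 8 without D day 1 replicates 1, 2 and 3, and 17 and 13 without D day 28 replicates 1 and 2. Without L day 28 replicates 1, 2 and 3 it was 13, 76 and 10. The number thus depended on which libraries were in the fit. Each of these fits also had fewer libraries, and the part of that in the lower counts was not tested.

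The genes with the strongest interaction included macrophage genes that did not pass the test at day 1. Mmp12 differed by 1.17 ± 0.47 on the log2 scale at day 1 and by 4.57 ± 0.49 and 5.14 ± 0.49 at days 7 and 28, and its interaction between days 28 and 1 had an adjusted p of 0.00620. Gpnmb, a glycoprotein of lipid- and particle-laden macrophages, had differences of 0.96 ± 0.45, 2.80 ± 0.46 and 4.70 ± 0.50 (interaction adjusted p = 0.00676), and the lipid receptor gene Trem2 0.18 ± 0.37, 2.00 ± 0.35 and 3.21 ± 0.36 (adjusted p = 0.00620). In the opposite direction were 6 of the 15 heat shock chaperones, beside 22 of all 16903 genes. Among them was Hsph1, with 0.18 ± 0.26 at day 1 and -1.80 ± 0.27 at day 28 (adjusted p = 0.0187). Mean Hsph1 in D itself was 67.0 ± 11.9 CPM at day 1 and 130.6 ± 27.6 CPM at day 28 (SD, n = 3). Clock genes were found on both sides. Nr1d1 had a difference of 1.14 ± 0.36 at day 1 and 3.83 ± 0.40 at day 28 (adjusted p = 0.0187), while Cry1 had -0.01 ± 0.19 and -1.55 ± 0.19 (adjusted p = 0.00904). The level of Nr1d1 in the carrier alone was not constant: its mean was 115.05 ± 26.6 CPM in D at day 1 and 14.6 ± 2.30 CPM in D at day 28 (SD, n = 3). Nor was that of Cry1, at 16.3 ± 1.80 CPM in D at day 1 and 41.1 ± 1.63 CPM in D at day 28 (SD, n = 3). The part of the hour of collection in these differences was not tested.

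**Figure D5:**
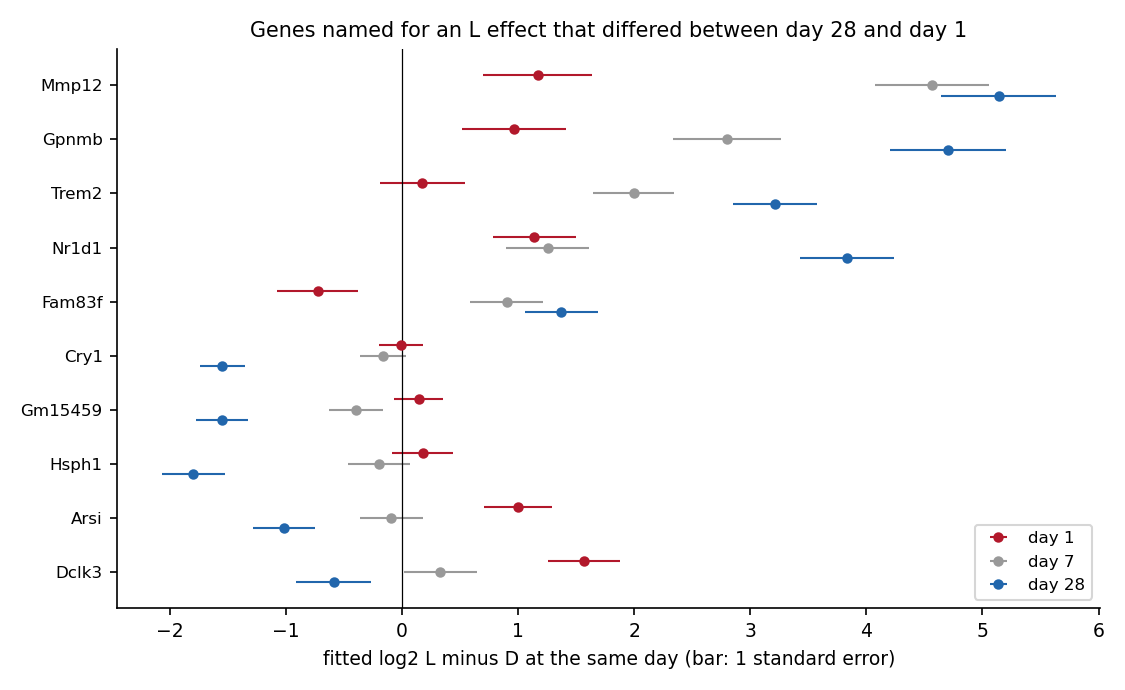
Fitted log2 difference between L and D at days 1, 7 and 28, with bars of ± SE, for 10 genes whose L effect differed between days 28 and 1. Mmp12, Gpnmb and Trem2 climb from day 1 to day 28, and Dclk3, Arsi, Hsph1, Gm15459 and Cry1 go from near or above 0 to below it.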

How the data were processed

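Poly(A)-selected RNA from lung pieces of 36 libraries was sequenced, and libraries were grouped by their titles. The deposited count table holds whole-number counts for 46078 genes, made by the authors with STAR 2.5.1b and featureCounts 1.5.1, per the submitters' processing notes, which also name bcl2fastq 2.19.1.403, CASAVA and the builds GRCm38 and GRCh37. Deposited TPM values came from StringTie 1.3.3, per the same notes. Only RNA with an integrity number of 8 or more was kept, per the labels' protocols. For the counting, the strand setting and annotation release were not given in the sources used here, and overlapping and antisense genes cannot be separated.

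Counts of all 36 libraries were fitted in R 4.3.3 with edgeR 4.0.16 (filterByExpr, TMM, factors 0.974 to 1.04 in the 6 libraries; 12 group means, 24 residual degrees of freedom), with a quasi-likelihood F test and Benjamini-Hochberg adjustment over 16903 genes at 0.05. All 12 groups share 1 estimate of the spread. CPM are TMM-scaled. TPM were used to compare levels between genes and, in limma 3.58.1 on log2(TPM + 1) and log2(TPM + 0.1), as alternatives to the count test. DESeq2 1.42.0, another scaling, no filter, fewer groups, leaving out the deepest library (80566751 counts), a replicate block and leaving out each replicate were the other alternatives. The procedure was tested on simulated data. Exact permutation of 3 against 3 cannot go below p = 0.1 and was not used. For the medians and plots by library, 0.5 was added to CPM before taking log2.

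The 36 gene lists (552 distinct genes, 531 tested, 19 below the filter, 2 names not found) and the tests were chosen with earlier results of these data known, so no list is independent evidence. Counts cover all tested members, but some members are not reported here by name. Genes were named if called, if among the 10 largest or smallest differences with an unadjusted p below 0.05, a mean of at least 1 CPM and no overlap between groups, or if among the 3 smallest p of a list; for the interactions, the 5 largest and 5 smallest called. Further list members were named, after their values were seen, to show how the L libraries differed. For alternatives, a library left out is named by group, day and replicate.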

Additional observations from a re-analysis of the deposited data

Results flagged for a closer look

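The effect of large sheets, taken as the log2 difference between L and D, differed between day 28 and day 1 by the test of that difference itself in 41 genes, and the most extreme in each direction are given here, as day 28 minus day 1 with the adjusted p of edgeR. The macrophage elastase gene Mmp12 differed by 3.97 ± 0.65 (adjusted p = 0.00620), and its mean level at day 28 was 7.52 CPM in D and 265 ± 148 CPM in L (SD, n = 3). Gpnmb differed by 3.74 ± 0.64 (adjusted p = 0.00676) and Trem2 by 3.04 ± 0.51 (adjusted p = 0.00620). The clock repressor gene Nr1d1 differed by 2.70 ± 0.52 (adjusted p = 0.0187) and Fam83f by 2.10 ± 0.47 (adjusted p = 0.0475).

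In the other direction, Dclk3 differed by -2.16 ± 0.45 (adjusted p = 0.0311), from 1.57 ± 0.31 at day 1 to -0.59 ± 0.33 at day 28. Arsi, a sulfatase gene, differed by -2.02 ± 0.40 (adjusted p = 0.0227). The chaperone gene Hsph1 differed by -1.98 ± 0.37 (adjusted p = 0.0187), Gm15459 by -1.70 ± 0.31 (adjusted p = 0.0119) and the clock gene Cry1 by -1.54 ± 0.27 (adjusted p = 0.00904). The days used different animals and different D libraries. Between days 1 and 28, mean Cry1 went from 16.3 to 41.1 CPM in D and from 16.2 to 14.0 CPM in L. Nr1d1 went from 115.05 to 14.6 CPM in D and from 253 to 208 CPM in L. Arsi went from 0.783 to 2.74 CPM in D and from 1.57 to 1.34 CPM in L. In Mmp12, Gpnmb, Trem2, Fam83f and Dclk3 the L mean changed more than the D mean, and in Hsph1 and Gm15459 both moved.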

How the results depend on the processing

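The count of 4 genes in L against D at day 1 was 18 with no filter on low counts, 27 with DESeq2 and 9 with the deepest library (S day 7 replicate 2) left out of the fit. It was 1 when only the groups compared were fitted (Spon2) and 1 when only the day 1 libraries were (Rgs2), with fewer samples to estimate the spread. With another scaling in edgeR it was 4, with limma on TPM values 3, and leaving out replicates gave 0 to 5. The counts of 0 against S (0 to 0 over left-out replicates), against US and between days 7 and 1 became, with no filter, 0, 2 and 2 and, with DESeq2, 0, 20 and 5. Leaving out replicates gave 0 to 9 against US and 0 to 1 between days 7 and 1. The count of 41 between days 28 and 1 was 100 with DESeq2, 9 with only the groups compared, 26 without the deepest library, 20 and 19 with limma on log2(TPM + 1) and log2(TPM + 0.1), and 7 to 318 over left-out replicates. With every replicate kept, none of the named genes changed sign under any of these settings. Of those that did with a replicate left out, Reg3g turned from -1.21 to 1.95 and Tff2 from -0.83 to 0.16 on the log2 scale without D replicate 3, and Hbb-bt from 0.50 to -0.028 without L replicate 3; over left-out replicates they ran from -2.66 to 1.95, from -1.30 to 0.16 and from -0.028 to 0.79. At 1 CPM, 16.2 to 21.4 counts limit what can be seen.

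Equal replicate numbers in L and D did not show that libraries were paired: the correlations of same-numbered libraries' deviations were 0.0937, 0.168 and 0.0669. Each D number did correlate best with its own L number, a hint from the data. For same-numbered L and S libraries of day 1 the correlations were -0.172, 0.240 and -0.349. Between L and US they were 0.00554, -0.477 and -0.235. A replicate block within each day gave 5 genes for L against D (the 4 and Fos), 1 between days 7 and 1, and 17 between days 28 and 1. Against S and US it gave 0.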
